A study of Mus musculus with 12 samples.

Results

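Histone genes of the mouse hippocampus are described here across 4 groups of animals that differ in genotype and in treatment. A probe set, the group of short probes that reports a transcript on the array, was taken as a histone member where every gene symbol annotated to it named a core or linker histone (symbols beginning with H1f, H2ac, H2bc, H2a, H2b, H3c, H3f or H4c). The rule found 29 of the 12422 probe sets tested, which carry 33 distinct symbols. Of these, 22 report replication-dependent genes of the histone clusters (H1f1 to H1f5, H2ac, H2bc and H3c) and 7 report variants encoded elsewhere or regulated apart from the cell cycle. By class, 8 report linker histone H1, 5 report H2A, 8 report H2B and 8 report H3, and none reports an H4c gene. The set was chosen from the measured difference of H1f2 between mutants and controls, so genotype differences of the members are given as a description. Counts of members past the threshold for genotype stand beside the share of all probe sets, and nothing is read from them, because the outcome for H1f2 was fixed by the choice. Responses to kainate were not used in that choice and are tested.

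Each group had 3 Affymetrix MG-U74A arrays, and each array carried hippocampal RNA pooled from 3 animals, so the unit of replication is a pool. The groups were mutants given kainate, mutants given saline, controls given kainate and controls given saline. The mutants had lost CREB and CREM, transcription factors that bind cAMP response elements, according to the study's title, but the labels give neither how the genes were disrupted, nor in which cells, nor the genotype of the controls. Animals were male and female littermates of 5 to 6 weeks, caged singly and handled for 5 days. Kainate, a glutamate receptor agonist that evokes seizures, was given intraperitoneally at 20 mg/kg, and animals were killed 1 hour after injection. Values are deposited log2 expression values made with GCRMA, a method that removes background according to probe sequence and normalises arrays to each other. They ranged from -0.78 to 14.35, and the number of arrays limits the precision.

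Replication-dependent histone genes are transcribed in large amounts during S phase, when new DNA is wrapped into nucleosomes. Their mRNAs end in a stem-loop instead of a poly(A) tail, and they are degraded once replication ends. Variant histones such as H2A.Z and H3.3 are made throughout the cell cycle from polyadenylated mRNAs and replace older histones in cells that no longer divide. A subset of cluster genes, H1f2 among them, is also transcribed into polyadenylated mRNA in differentiated cells. Standard Affymetrix labelling begins with an oligo(dT) primer, so it favours polyadenylated mRNA, and a low signal of a cluster gene is not a measure of its stem-loop transcripts.

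Promoters of H1f2 and of H2bc6 and H2bc8, which share a probe set that was higher in mutants, are shown because CREB and CREM act through DNA. The H3 genes are not shown, since 12 of them share the H3 probe set that differed. RefSeq promoter windows (GRCm38.p6) were found for 28 of the 33 symbols, giving 29 windows of 250 bases before the transcription start. H2bc4, annotated to the same probe set as H2bc6 and H2bc8, is among the symbols without a window, so its promoter was not searched. The sequences below run 5′ to 3′ on the coding strand. Capitals mark a CCAAT box (or its reverse complement), the histone H1 box of letters AAACACA, the octamer of letters ATTTGCAT that is known from H2B promoters, and TGACG, the shorter core of the cAMP response element. H2bc6 has a pair of annotated starts.
H1f2, chr13:23738557-23738806, plus strand: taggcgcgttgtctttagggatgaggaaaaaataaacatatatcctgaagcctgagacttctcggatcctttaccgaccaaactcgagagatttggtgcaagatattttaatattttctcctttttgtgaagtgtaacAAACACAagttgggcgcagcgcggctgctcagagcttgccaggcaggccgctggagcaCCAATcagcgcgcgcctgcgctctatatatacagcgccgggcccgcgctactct
H2bc8, chr13:23571150-23571399, plus strand: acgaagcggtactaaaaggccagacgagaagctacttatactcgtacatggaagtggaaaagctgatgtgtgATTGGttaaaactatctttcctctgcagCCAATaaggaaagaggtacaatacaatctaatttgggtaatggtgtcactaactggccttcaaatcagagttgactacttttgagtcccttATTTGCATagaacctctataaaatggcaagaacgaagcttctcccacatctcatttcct
H2bc6, chr13:23585971-23586220, minus strand: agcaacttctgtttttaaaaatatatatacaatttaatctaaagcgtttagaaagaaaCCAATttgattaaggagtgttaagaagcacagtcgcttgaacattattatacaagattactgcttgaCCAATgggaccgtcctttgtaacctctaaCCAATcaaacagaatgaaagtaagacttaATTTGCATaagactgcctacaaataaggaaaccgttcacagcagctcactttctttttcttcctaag
H2bc6, chr13:23621095-23621344, minus strand: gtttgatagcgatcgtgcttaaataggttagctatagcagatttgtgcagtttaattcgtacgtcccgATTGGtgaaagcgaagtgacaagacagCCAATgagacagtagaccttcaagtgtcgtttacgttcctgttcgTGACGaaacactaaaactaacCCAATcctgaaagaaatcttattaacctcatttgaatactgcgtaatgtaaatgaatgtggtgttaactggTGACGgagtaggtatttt

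In H1f2 the CCAAT box lay 54 bases and the H1 box 112 bases before the start, and no TGACG core was found in the window on either strand. The H1 box was present in 4 of the 5 H1 cluster windows, against 6.25% of all 32851 promoters. The octamer was present in 5 of 7 H2B windows, against 1.60% of all promoters. A CCAAT box on either strand was present in 26 of the 29 histone windows (89.7%), against 33.8% of all promoters. These letters follow the classes of histone gene and are a description of the windows, not of sites bound in the hippocampus.

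The full cAMP response element, of letters TGACGTCA, was found in 0 of the 29 histone windows, against 1.55% of all promoters. Its shorter core, of letters TGACG, was found in 6 of 29 (20.7%), against 17.8% of all promoters. The longer element contains the shorter one, and both strands were searched. Among the windows printed above, the core was present in the last of the H2bc6 windows, 110 and 18 bases before its start. The absence of these letters says nothing of binding farther away or at other sequences.

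Many histone probe sets gave weak signal. The mean over the 12 arrays lay above the median of all probe sets, 4.32 on the log2 scale, for 10 of the 29 members. These were H2bc4/H2bc6/H2bc8 (1 probe set for 3 genes), H2az1, H2az2, H2ax, H1f2, H1f10, H3c14, H2bc1 and a pair of probe sets that each carry the same 12 H3 symbols (93023_f_at and 96416_f_at). The other 19 lay below it. They were the probe sets of H1f1, H1f3, H1f4 and H1f5 (somatic linker histones), H1f6 (testis), H1f8 (oocyte), H2ac21, H2aj, H2bc3, H2bc18, H2bc21 (an H2B of olfactory neurons), H2bc22 with 3 probe sets, H3c8 with 3 probe sets, and a pair of H3 probe sets with 8 symbols. The weak linker histones had mean levels of 2.12 (H1f1), 2.37 (H1f3), 2.16 (H1f4), 3.60 (H1f5) and 3.40 (H1f6), and their averaged differences, mutant minus control, were -0.07, -0.08, -0.09, -0.13 and -0.06 in that order. The weak variant H2aj, an H2A that accumulates in senescent human cells, had a mean level of 3.51 and a difference of -0.08. Of the 2 members next to the division, H2bc1 averaged 4.88 and H1f8 averaged 3.95.

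The weak members moved little and moved together with 1 array. Their spread over the 12 arrays, highest minus lowest log2 value, was 0.10 to 0.75 with a median of 0.43, against a median of 1.09 for the 10 members above the median level. Of the 19 weak members, 16 had their highest value on the array of control kainate replicate 3, as did 84.0% of all 6211 probe sets below the median level. None of the 10 stronger members had its highest value on that array. That array had a narrower distribution than the others, with an interquartile range of 3.74 against 4.40 to 4.61. The part of that array in the small differences of the weak members was not tested.

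**Figure D1:**
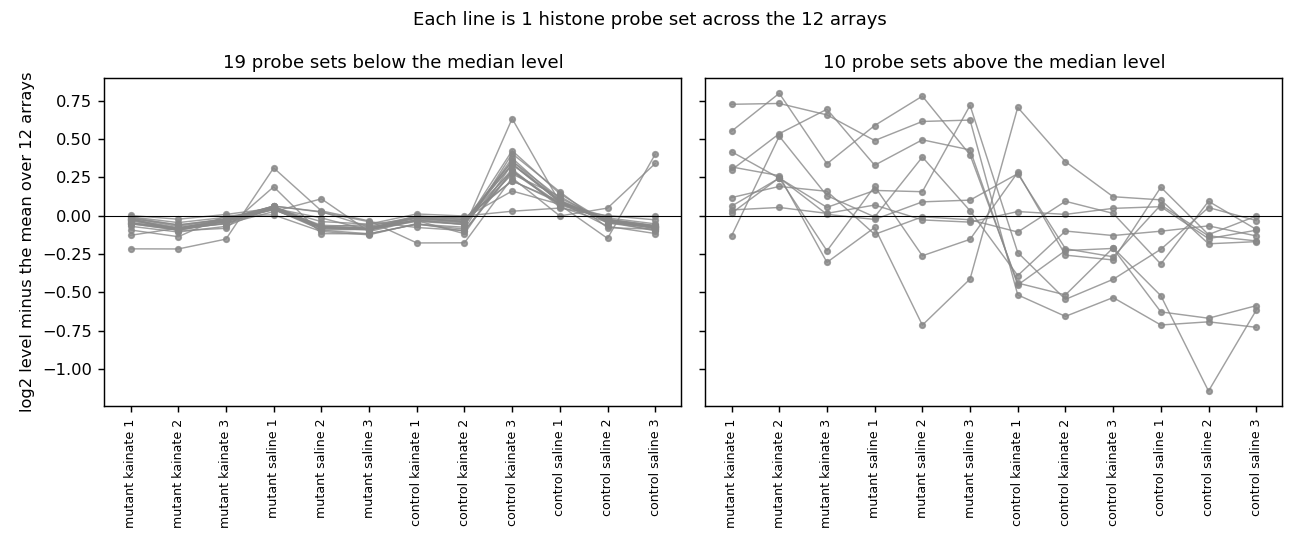
Log2 level of each histone probe set minus its own mean over 12 arrays (vertical axis) on each array (horizontal axis, grouped by genotype and treatment), with 1 line per probe set, for the 19 below (left) and the 10 above (right) the median level of all probe sets. On the left, 16 lines peak at control kainate replicate 3, whereas on the right none does and several lie higher in the mutant arrays.

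H1f2 encodes linker histone H1.2, which binds DNA where it enters and leaves the nucleosome and is known to leave the nucleus after DNA double-strand breaks. Its level was 8.14, 8.15 and 8.07 in mutants given kainate, 7.91, 8.03 and 8.04 in mutants given saline, 6.90, 6.76 and 6.88 in controls given kainate, and 6.71, 6.73 and 6.69 in controls given saline. All 6 mutant arrays lay above all 6 control arrays, and arrays within a group lay close together, as the plot of levels shows. Averaged over treatments, the mutants stood 1.28 log2 units above the controls (SE 0.051), or 2.43-fold. The difference was 1.29 under saline (SE 0.072) and 1.27 under kainate (SE 0.072). In bulk tissue, more RNA in each cell and a larger share of cells that make it cannot be told apart.

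H2B, which pairs with H2A in the nucleosome, differed in the same direction. The probe set shared by H2bc4, H2bc6 and H2bc8 read 11.47, 11.71 and 11.87 in mutants given kainate, 11.51, 11.67 and 11.61 in mutants given saline, 10.73, 10.95 and 10.96 in controls given kainate, and 10.55, 10.51 and 10.59 in controls given saline. Again no mutant array overlapped a control array. The mutants were higher by 1.04 under saline (SE 0.11), or 2.06-fold, and by 0.81 under kainate (SE 0.11), or 1.75-fold. Which of the 3 genes carries the difference cannot be told from a probe set that matches all of them.

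The H3 family gave unlike readings from probe sets with the same annotation. The probe set 93023_f_at, annotated to 12 H3c genes, read 5.75, 5.99 and 5.53 in mutants given kainate, 5.78, 5.97 and 5.59 in mutants given saline, 4.76, 4.68 and 4.99 in controls given kainate, and 4.67, 4.05 and 4.58 in controls given saline. The mutants were higher by 1.35 under saline (SE 0.18), or 2.54-fold, and by 0.95 under kainate (SE 0.18), or 1.93-fold, without overlap in either. The probe set 96416_f_at, annotated to the same 12 genes, stayed between 5.71 and 5.93 on all 12 arrays, and its genotype difference averaged over treatments was 0.03 (SE 0.053). The suffix f marks probes that match several family members, and which H3 transcripts each probe set detects in this tissue was not tested. A pair of further H3 probe sets annotated to 8 of these genes lay below the median level and did not separate mutants from controls.

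Among weaker differences, H2bc1, an H2B known from testis, read 4.95, 5.13 and 4.94 in mutants given kainate, 5.05, 5.04 and 5.60 in mutants given saline, 4.64, 4.34 and 4.47 in controls given kainate, and 4.66, 4.94 and 4.85 in controls given saline. The groups did not overlap within either treatment, and the averaged difference was 0.47 (SE 0.11), or 1.38-fold. H3c14, reported alone by the probe set 93068_r_at, read 5.54, 6.19 and 5.80 in mutants given kainate, 5.67, 6.06 and 5.71 in mutants given saline, 5.28, 5.57 and 5.55 in controls given kainate, and 5.57, 5.61 and 5.54 in controls given saline. Its arrays overlapped under kainate and not under saline, and the averaged difference was 0.31 (SE 0.11).

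**Figure D2:**
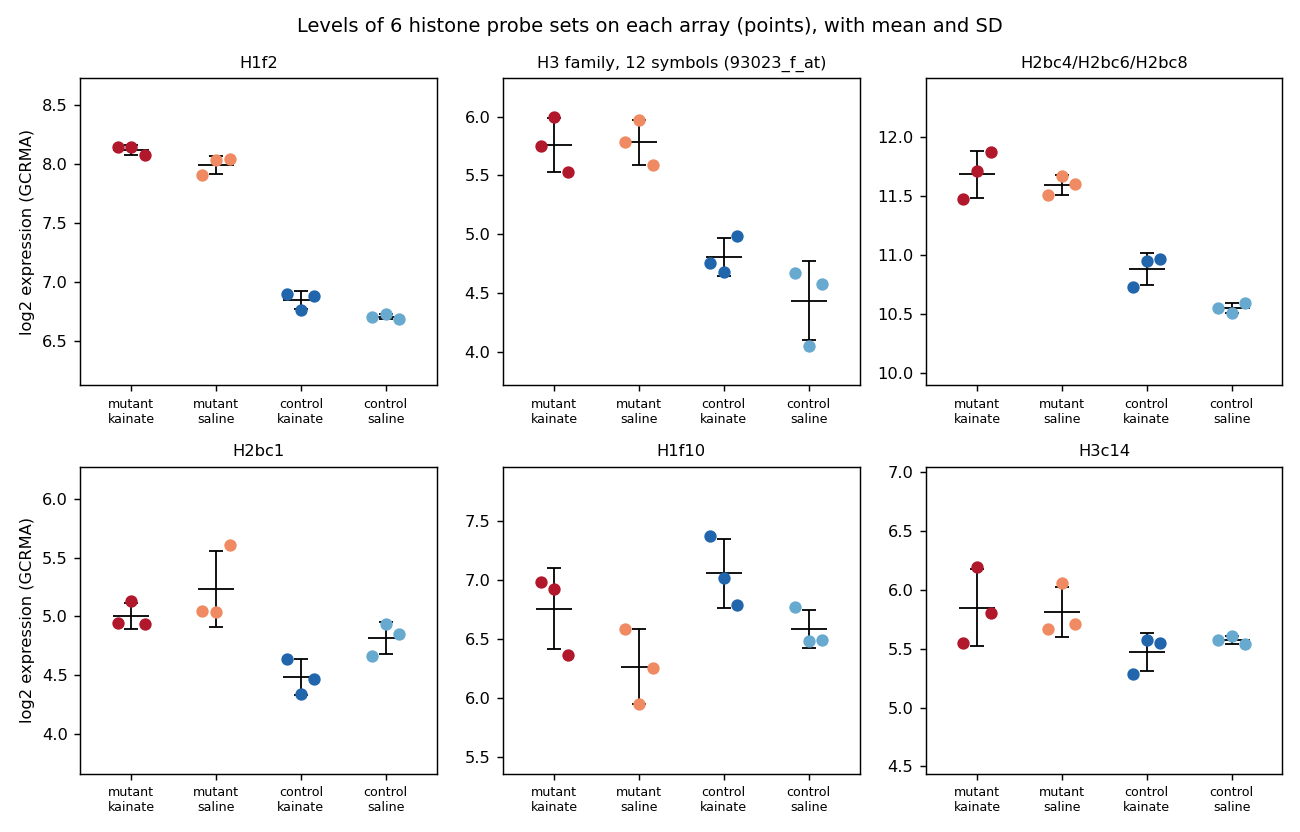
Log2 expression (vertical axis, GCRMA) of 6 histone probe sets on each of the 12 arrays (points), by group (horizontal axis), with the group mean and SD as bars (n = 3 arrays per group). For H1f2, H2bc4/H2bc6/H2bc8 and 93023_f_at all mutant points lie above all control points, whereas for H1f10 the mutant and control points overlap.

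Values of the variants above the median level follow, also as a description. H2ax, whose protein is phosphorylated at DNA breaks, read 8.24, 8.06 and 7.59 in mutants given kainate, 8.01, 7.56 and 7.67 in mutants given saline, 8.10, 7.56 and 7.53 in controls given kainate, and 8.01, 7.70 and 7.82 in controls given saline. Its genotypes overlapped in both treatments, and it differed by 0.23 under kainate (SE 0.20) and by -0.09 under saline (SE 0.20). H2az1 and H2az2, which encode the H2A.Z proteins found at promoters, had mean levels of 10.17 and 9.22. They differed by 0.10 (SE 0.073) and 0.15 (SE 0.10) when averaged over treatments. The genotypes did not overlap for H2az1 under kainate. They overlapped for H2az1 under saline and for H2az2 in both treatments. H1f10, the variant linker histone H1X, was lower in mutants by an average of 0.31 (SE 0.15). Its values were 6.98, 6.93 and 6.36 in mutants given kainate, 6.59, 5.95 and 6.25 in mutants given saline, 7.37, 7.02 and 6.79 in controls given kainate, and 6.77, 6.48 and 6.50 in controls given saline, and mutant and control arrays overlapped within each treatment. Among the 10 members above the median level, the 6 cluster probe sets had a median averaged difference of 0.70, with 6 of 6 above 0. The 4 variants had a median of 0.09, with 3 above 0. The 6 include H1f2, chosen for its difference, and both probe sets of the same 12 H3 symbols, of which 96416_f_at differed by 0.03 (SE 0.053). These medians are therefore a description, and nothing is read from the contrast. The median over all 29 members was -0.07 and over all 12422 probe sets -0.06, and the 19 weak members ranged from -0.15 to -0.02, all below 0.

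By limma with Benjamini-Hochberg adjustment over all probe sets and a threshold of 0.05 on adjusted p, 0.612% of all probe sets were called for genotype averaged over treatments, and 3 of the 29 members were among them, all higher in mutants: H1f2, H2bc4/H2bc6/H2bc8 and 93023_f_at. Under saline the background was 0.137% and the same 3 members were called. Under kainate it was 0.354% and 2 members were called, H1f2 and H2bc4/H2bc6/H2bc8. Arrays of the genotypes did not overlap for 7.08% of all probe sets under saline and 8.99% under kainate, and for 5 members in each, all higher in mutants. Those under saline were H1f2, H2bc4/H2bc6/H2bc8, 93023_f_at, H2bc1 and H3c14, and under kainate H2az1 took the place of H3c14. For 1.73% of all probe sets the arrays did not overlap in both treatments with the same direction, and 4 members were among them. Since H1f2 was chosen for its genotype difference, nothing is read from these counts. Without mutant kainate replicate 2, or without mutant kainate replicate 3, 1 member was called under kainate, H1f2. Under saline, 93023_f_at was no longer called without control saline replicate 2, control saline replicate 3, mutant saline replicate 1 or mutant saline replicate 2, with differences of 1.16, 1.42, 1.35 and 1.25 in that order.

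**Figure D3:**
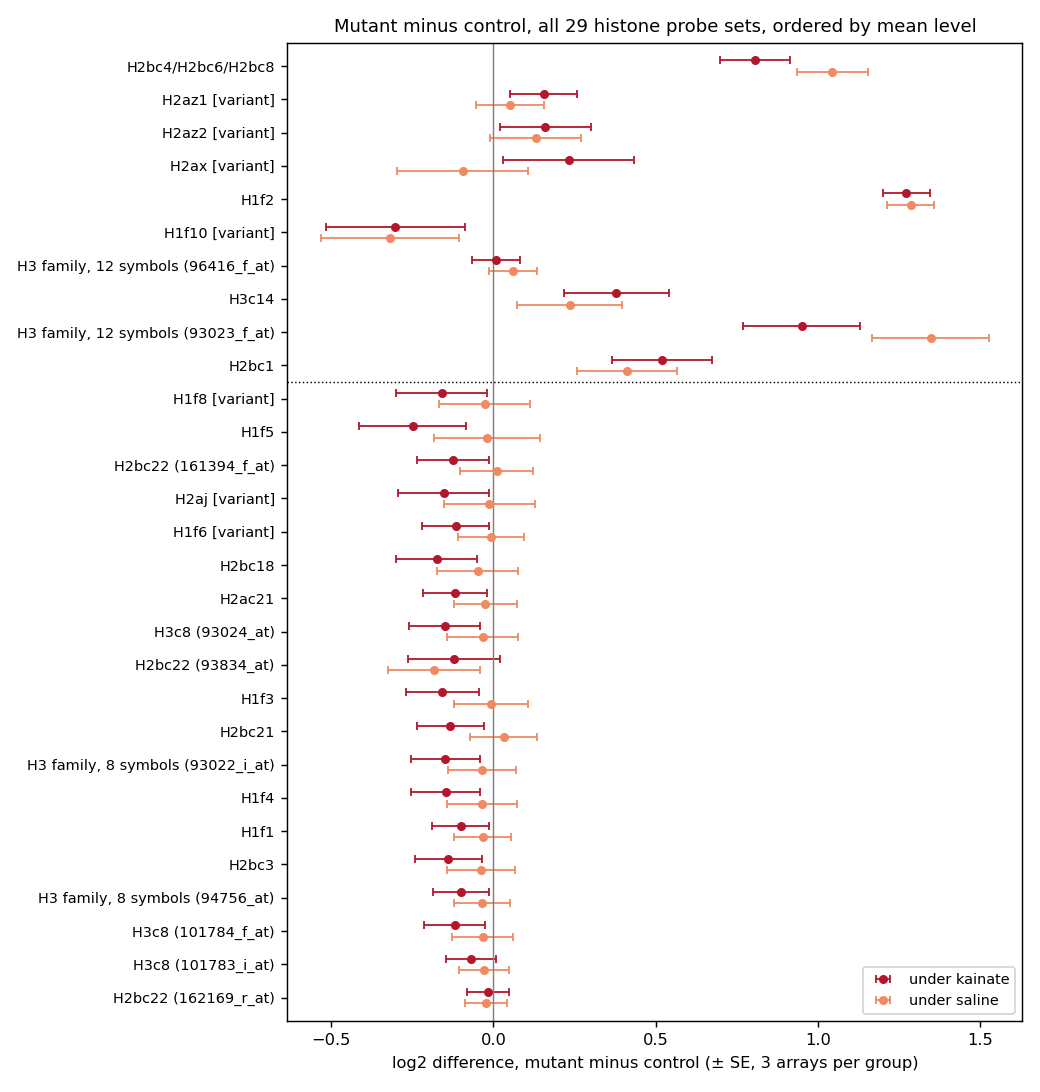
Log2 difference, mutant minus control (horizontal axis), with SE bars for each of the 29 histone probe sets (rows, by mean level, with the dotted line at the median level of all probe sets), under kainate and under saline. H1f2, H2bc4/H2bc6/H2bc8 and 93023_f_at lie between 0.81 and 1.35 in both treatments, whereas rows below the dotted line lie between -0.25 and 0.03.

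Kainate differences of the histone members at 1 hour lay between -0.33 and 0.49 across both genotypes. In the limma fit, 0 of 29 members passed for the kainate effect in mutants (0.298% of all probe sets did). Counts were 0 in controls (0.33%) and 0 averaged over genotypes (0.942%). For the averaged effect H1f10 passed in some other fits, and H1f2 and H1f8 passed with array weights. Without array weights or a block, the counts at an unadjusted p under 0.05 were 1, 2 and 5 members, for mutants, controls and the average. Over all probe sets they were 780, 915 and 1481. The median kainate difference of the 29 members averaged over genotypes was 0.04, beside 0.03 for all probe sets.

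H1f10 had the largest kainate difference of the members, 0.49 in mutants (SE 0.21) and 0.48 in controls (SE 0.21), which is 1.41-fold and 1.39-fold. Averaged over genotypes it was 0.48 (SE 0.15), with an adjusted p of 0.196 by limma. This call depends on the fit: H1f10 passed with the replicate number as a block (adjusted p 0.0492 by limma), with replicate 1 as a batch (adjusted p 0.0372 by limma) and with array weights (difference 0.64, adjusted p 0.0100 by limma). Kainate and saline arrays of like replicate number all correlated in mutants, but not all did in controls. The values given above overlap between kainate and saline in mutants and not in controls. Within replicate 1 the kainate difference was 0.39 in mutants and 0.60 in controls, and within replicates 2 and 3 it was 0.54 in mutants and 0.41 in controls, so both sets of arrays gave the same direction.

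H1f2 was slightly higher with kainate in both genotypes. Its kainate difference was 0.13 in mutants (SE 0.072) and 0.14 in controls (SE 0.072), and the averaged difference was 0.14 (SE 0.051), with an adjusted p of 0.300 by limma. With array weights the averaged difference of H1f2 passed (adjusted p 0.0397 by limma). The arrays given kainate lay above those given saline in both genotypes. Arrays given kainate and saline did not overlap for 12.4% of all probe sets in mutants and 7.04% in controls. Members without overlap were H1f2 and H2az1 (higher) and H1f8 (lower) in mutants. In controls they were H1f10, H1f2, 93023_f_at and H2bc4/H2bc6/H2bc8 (higher) and H2bc1 (lower). That is 3 and 5 of 29, beside the background shares just given.

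The H2B genes pointed in both directions after kainate. H2bc4/H2bc6/H2bc8 differed by 0.09 in mutants (SE 0.11) and 0.33 in controls (SE 0.11), and the averaged difference of 0.21 had an adjusted p of 0.284 by limma. H2bc1 differed by -0.23 in mutants (SE 0.15) and -0.33 in controls (SE 0.15), and the averaged difference of -0.28 had an adjusted p of 0.316 by limma. For 93023_f_at the difference was -0.03 in mutants (SE 0.18) and 0.37 in controls (SE 0.18). H1f8, below the median level, read 3.73, 3.73 and 3.79 in mutants given kainate, 4.26, 3.98 and 3.91 in mutants given saline, 3.77, 3.77 and 4.19 in controls given kainate, and 3.94, 3.99 and 4.29 in controls given saline. It differed by -0.30 in mutants (SE 0.14) and -0.17 in controls (SE 0.14). None of these passed the test with all arrays weighted alike and no block. With array weights H1f8 passed averaged over genotypes (adjusted p 0.0172 by limma).

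**Figure D4:**
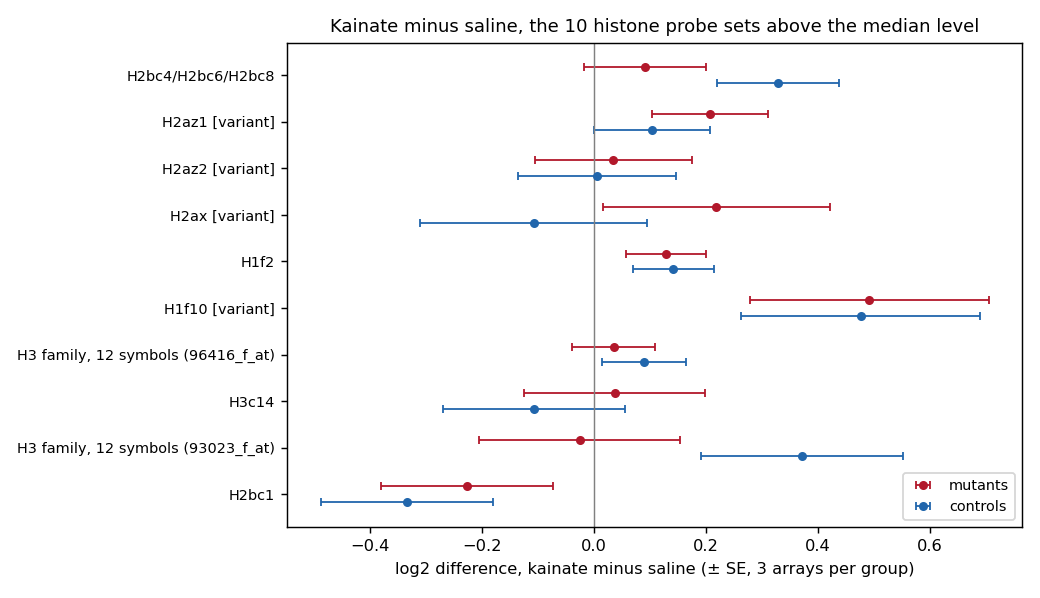
Log2 difference, kainate minus saline (horizontal axis), with SE bars for the 10 histone probe sets above the median level (rows, by mean level), in mutants and in controls (n = 3 arrays per group). H1f10 lies near 0.5 in both genotypes and H2bc1 below 0 in both, and no member passed the test with all arrays weighted alike and no block.

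Whether the kainate effect depended on genotype was tested as the difference between the mutant and the control kainate effects. By limma, 0% of all 12422 probe sets passed, with 107 at an unadjusted p under 0.05, and 0 of the 29 members passed, with 0 at an unadjusted p under 0.05. For H1f2 the difference was -0.01 (SE 0.10), with an adjusted p of 0.981. The members farthest from 0 were 93023_f_at at -0.40 (SE 0.25), H2ax at 0.33 (SE 0.29) and H2bc4/H2bc6/H2bc8 at -0.24 (SE 0.15), each with an adjusted p of 0.939.

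Genes whose products make or handle histones were set beside the members, with the genotype effect averaged over treatments and limma's adjusted p over all probe sets. Of 29 genes of S phase and mitosis, 27 were measured and 4 lay above the median level, Pcna, Rrm1, Mcm4 and Mcm7. None of the 27 passed. The median difference was -0.04 over all 27 and 0.21 over the 4 above the median level. Those with the smallest p were Rrm1, a subunit of ribonucleotide reductase, at 0.32 (SE 0.12), Pcna, the replication clamp, at 0.26 (SE 0.16), and Lig1, a DNA ligase, at -0.26 (SE 0.17). On control kainate replicate 3, Rrm1 and Pcna had their lowest values, 4.27 and 8.47, and Lig1 its highest, 4.42. The part of that array in these differences was not tested. Of 11 genes of neurogenesis and immature neurons measured, none passed, with a median of 0.12, and Dcx, a microtubule protein of young neurons, differed by 0.44 (SE 0.11) with an adjusted p of 0.141.

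Of 13 genes for histone mRNA transcription and end processing, 5 were measured and none passed. Slbp, which binds the stem-loop of histone mRNA, differed by 0.08 (SE 0.085), and Casp8ap2, needed for histone transcription in S phase, by 0.13 (SE 0.12). Of 21 histone chaperones, 17 were measured and none passed, with a median of 0.01. Daxx, the H3.3 chaperone, differed by 0.24 (SE 0.13), Npm1, the nucleolar chaperone nucleophosmin, by 0.18 (SE 0.098), and Nap1l2, a neuronal chaperone of H2A and H2B, by -0.25 (SE 0.088). Macroh2a1 and Cenpa, variants whose symbols fall outside the rule, differed by -0.23 and -0.15, and neither passed.

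The H1f2, H2bc6 and H2bc8 genes lie in the large histone cluster of chromosome 13, which holds 54 genes of the rule in the RefSeq annotation of GRCm38.p6. Between them lie 6 other genes with a probe set of their own, namely Abt1, Btn1a1, Hfe, Slc17a1, Snrp1c-ps2 and Zfp322a. Only 3 of the 6 lay above the median level, Abt1, Snrp1c-ps2 and Zfp322a. None of the 6 passed for genotype, and their averaged differences ranged from -0.17 to 0.14. Among other members of the same cluster, H1f1, H1f3, H1f4 and H1f5 lay below the median level. These linker histones differed by -0.25 (H1f5 under kainate, SE 0.16) to -0.01 (H1f3 under saline, SE 0.11) across both treatments. H2bc1, also on chromosome 13 and above the median level, was higher in mutants by 0.47 averaged over treatments (SE 0.11). The probe sets 93023_f_at and 96416_f_at, whose H3 genes lie partly on chromosome 13, differed by 1.15 (SE 0.13) and 0.03 (SE 0.053).

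Among markers of cell types, most of those that passed for genotype were microglial. Of 13 microglial genes listed, 10 were measured and 8 lay above the median level. By limma's adjusted p, 7 were higher in mutants and 0 lower averaged over treatments: Tyrobp by 1.76 (SE 0.12), C1qc by 1.24 (SE 0.15), C1qb by 1.17 (SE 0.092), C1qa by 1.08 (SE 0.098), Ctss by 0.91 (SE 0.098), Laptm5 by 0.82 (SE 0.083) and Csf1r by 0.70 (SE 0.10). The mean log2 level of the 10 genes was 7.57 to 7.84 in mutants given kainate, 7.48 to 7.59 in mutants given saline, 6.81 to 6.94 in controls given kainate, and 6.68 to 6.74 in controls given saline. Group means of H1f2 and of H2bc4/H2bc6/H2bc8 fell in the same order, and so did those of the astrocyte marker Gfap (11.16, 10.81, 9.66 and 9.06). Those of 93023_f_at did not, with 5.76 in mutants given kainate and 5.78 in mutants given saline. Itgam and Cx3cr1, defining markers of microglia, lay below the median level and did not pass, nor did Aif1. The part of these cells in the histone difference was not tested.

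Of 7 astrocyte markers, Gfap, the intermediate filament of reactive astrocytes, was higher in mutants by 1.62 (SE 0.21, adjusted p 0.00554), and the other 6 did not pass. Of these, Glul and Aqp4 read lower on the replicate 1 arrays than on all others. Their SE were 1.00 and 0.39, so that they did not pass says little. None of 6 oligodendrocyte markers and none of 8 endothelial and blood markers passed for genotype averaged over treatments, and Hba-a1, a haemoglobin chain, was higher with kainate by 0.53 (adjusted p 0.0372). Of 7 markers of hippocampal neurons, 6 lay above the median level, so markers of the labelled tissue were present, and Wfs1, a marker of CA1 pyramidal neurons, was lower in mutants by 1.04 (log2 difference -1.04, SE 0.14, adjusted p 0.0082). The mean level of the 7 was 8.77 to 8.92 in mutants given kainate, 8.82 to 8.97 in mutants given saline, 8.96 to 9.41 in controls given kainate, and 9.25 to 9.40 in controls given saline. Apart from Wfs1, none of the 7 passed. Their averaged differences ran from -1.04 (Wfs1) to 0.07 (Snap25), with a median of -0.24. Among them, Camk2a varied widely within a group, with 3.71, 7.14 and 6.97 in mutants given kainate. Where markers were lower, fewer neurons and less neuronal RNA per cell cannot be told apart here. The part of either in the histone levels was not tested.

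**Figure D5:**
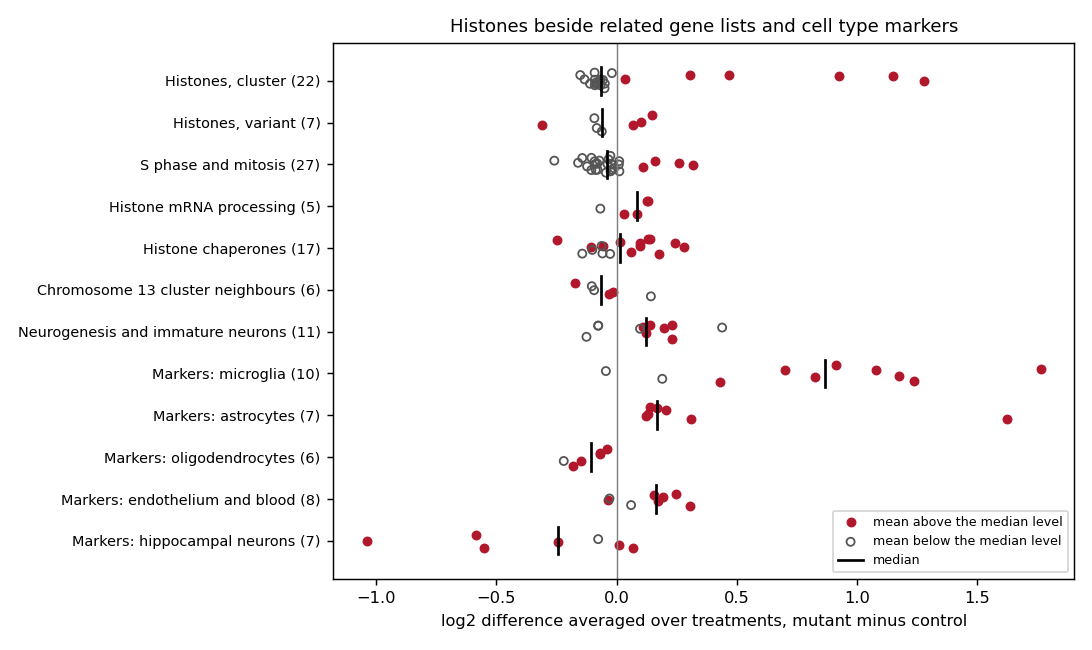
Log2 difference, mutant minus control, averaged over treatments (horizontal axis), for each measured gene or histone probe set (points, filled where the mean lies above the median level of all probe sets) in each list (rows, number of points in brackets), with the median of the list as a vertical bar. The cluster histones above the median level reach 1.28 and microglial markers reach 1.76, whereas the lists of S phase, histone processing, chaperones and neighbouring genes lie between -0.26 and 0.32.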

How the data were processed

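Hippocampal RNA of 12 pools was measured on MG-U74A arrays. The deposited log2 values come from GCRMA, run by the authors in R 2.4.1 per the submitters' processing notes, and whether all arrays were processed together is not given in the sources used here. Of 12488 probe sets in the table, 66 were array controls and were not tested. Symbols came from the platform annotation, with 10833 probe sets carrying 1 symbol, 396 several and 1193 none, and were used as given there. No probe set was filtered. Array medians lay between 4.23 and 4.47, and arrays correlated at 0.973 to 0.998.

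All 12 arrays entered 1 linear model with group means, fitted with limma 3.58.1 in R 4.3.3 (8 residual and 2.48 prior degrees of freedom), with two-sided tests adjusted by Benjamini-Hochberg over 12422 probe sets. The scripts were tested on simulated data. Members were named with array values if they were H1f2, passed the threshold, or were among the 3 largest differences of a contrast. List genes were named if they passed or had 1 of the 3 smallest p of the list, and others named to spell out a small count were chosen after their values were seen. The members and lists were chosen with earlier results of these data known.

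Replicate numbers were checked for pairing by correlating deviations from group means. Every pair of like number correlated above 0.1 in the genotype comparisons and for kainate in mutants. For kainate in controls replicate 3 gave -0.0109. Arrays 2 and 3 of unlike number also correlated. Control saline 2 gave 0.568 with mutant saline 3 and 0.583 with mutant saline 2. The correlations thus set replicate 1 apart and do not show that replicates 2 and 3 pair by number. The block changed no call in the genotype comparisons or for kainate in mutants.

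Alternatives were a replicate block, replicate 1 as a batch, replicates 2 and 3 only, quantile normalisation, median centring, array weights, a robust variance prior that follows intensity, a filter at the median level, only the arrays compared, only probe sets with 1 symbol, and leaving out each array in turn. Motifs were searched as exact letters on both strands of RefSeq windows (GRCm38.p6). Nothing in the labels says more of the pools than that they are biological replicates.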

Additional observations from a re-analysis of the deposited data

How the results depend on the processing

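H1f2 stayed higher in mutants under every alternative run, by 1.26 to 1.33 under saline, 1.11 to 1.35 under kainate and 1.21 to 1.31 averaged over treatments. Of the 3 members called under saline, 93023_f_at was no longer called with quantile normalisation or with only the arrays compared, which left 2 in each, nor when control saline replicate 2 or 3 or mutant saline replicate 1 or 2 was left out, with 2 called each time. With replicates 2 and 3 only 1 was called, and 1 with only probe sets of 1 symbol, which leaves out the other 2 by construction. Of the 2 called under kainate, 1 was called with replicates 2 and 3 only, 1 with only probe sets of 1 symbol, 1 with only the arrays compared, and 1 to 3 with each array left out in turn. Of the 3 called averaged over treatments, 2 were called with replicates 2 and 3 only, where 93023_f_at was not (difference 1.20), and 1 with only probe sets of 1 symbol. For kainate averaged over genotypes, where 0 members were called, 1 was called with the replicate block (H1f10, difference 0.48, adjusted p 0.0492 by limma) and 1 with replicate 1 as a batch (H1f10, adjusted p 0.0372 by limma). With array weights, 5 were called there and 1 for kainate in mutants. The share of all probe sets called with array weights is not given here, so nothing is read from these counts. The cause was not tested. The replicate block moved no other count of calls. The difference in kainate effect of H1f2, -0.01, changed sign with median centring, at 0.068, and ranged from -0.056 to 0.014 with each array left out in turn. Using only the arrays compared is the same fit for the averaged effects and the interaction, and weak members have no value once only probe sets above the median level are kept. Limits lie in pools of animals without single-animal values, shared probes of histone families, labelling from poly(A) tails and signal below the median level for 19 of 29 members.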

Other observations

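A further 4 probe sets carry histone symbols together with another symbol and so fall outside the rule. The probe set 94805_f_at, annotated to 12 replication-dependent H2A genes, H2aw and Trim17, read 9.69, 9.73 and 9.63 in mutants given kainate, 10.03, 10.07 and 10.10 in mutants given saline, 9.62, 9.40 and 9.31 in controls given kainate, and 9.80, 9.74 and 9.61 in controls given saline. Averaged over genotypes its log2 kainate difference was -0.33 (SE 0.065, adjusted p 0.0485 by limma), and kainate and saline arrays overlapped in controls only. It was higher in mutants by 0.30 averaged over treatments (SE 0.065, adjusted p 0.0982 by limma), without overlap of the genotypes in either treatment. The H3.3 genes H3f3a, H3f3b and H3f3c share the probe sets 100708_at and 100380_at with 3 predicted genes, and their averaged kainate differences were 0.45 (adjusted p 0.0559 by limma) and 0.41 (adjusted p 0.152 by limma). The probe set 93067_f_at, of H2ac18, H2ac19 and a pseudogene, differed between mutants and controls by 0.30 averaged over treatments (SE 0.081, adjusted p 0.207 by limma).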
